A study of Mus musculus with 3 samples.

Results

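Cluster 13 is a small population of matrix-producing stromal cells, led by the genes Thbs4, Spink8, Sfrp2 and Comp, in single-cell libraries of the mouse iridocorneal angle and limbus. Its members were all kept cells that carry the label 13 in the clustering deposited with the data, matched by barcode to the raw counts of each library. There were 394 such cells among 26008 kept cells, and they are described by their counts of unique molecular identifiers (UMIs), each of which stands for 1 captured transcript. The clustering used the expression of these same cells, so the levels of the genes that set cluster 13 apart from other labels are a description and were not tested.

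The libraries came from 6-week-old mice of mixed strain, bred for 2 generations onto the albino ICR background. Control mice were Angpt1 flox/flox, which means that both copies of Angpt1 were flanked by loxP sites but no recombinase was present, and gave 2 libraries (controls 1 and 2). Angpt1ΔNC mice were Angpt1 flox/flox;Wnt1Cre+ and gave 1 library. Wnt1Cre drives the Cre recombinase in the neural crest and its descendants, which include much of the stroma of the anterior eye, so the deletion is limited to those lineages. Each library pooled 4 to 6 eyes of 2 to 3 mice, and cells of 1 library are not replicates of a genotype.

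Extracellular matrix in load-bearing tissue is built from fibril-forming collagens, whose assembly and spacing are set by small leucine-rich proteoglycans (SLRPs) such as decorin, fibromodulin, lumican and keratocan. Thrombospondin-4 (Thbs4) and cartilage oligomeric matrix protein (Comp, thrombospondin-5) are pentameric secreted glycoproteins that bind collagens and are abundant in tendon and ligament. Sfrp2 is a secreted frizzled-related protein that binds Wnt ligands and modulates their signalling, and Spink8 belongs to the Kazal-type family of serine protease inhibitors. Angpt1 encodes angiopoietin-1, a ligand of the endothelial receptor TEK that is needed for Schlemm's canal, the vessel that drains the aqueous humour next to this stroma.

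The kept cells held 66484181 to 80346829 UMIs per library, and cluster 13 held 1040887 UMIs in control 1, 1027883 in control 2 and 353366 in Angpt1ΔNC. A cell of cluster 13 had a median of 6225, 6120 and 5215.5 UMIs and of 2029, 1987 and 1852 genes in these libraries, in that order. The median share of mitochondrial UMIs was 2.54% and 3.47% in the controls and 4.15% in Angpt1ΔNC. Angpt1 itself, the targeted gene, was found in 4 of 165 cells of cluster 13 in each control and in 0 of 64 in Angpt1ΔNC, which allows a share of cells with a UMI of up to 4.69% (3 counts, counting error only). In all other kept cells its mean level was 0.577 and 0.529 UMIs per 10000 UMIs in the controls and 0.00337 in Angpt1ΔNC. Barcodes shared between libraries numbered 13 to 25 per pair among kept cells, and 0 of them were in cluster 13.

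The sexes of the pooled animals differed between the cells of the genotypes. With a cell typed as male by a Y-linked UMI and no Xist UMI, and as female by Xist and no Y-linked UMI, 98 and 104 cells of cluster 13 were male-typed and 0 and 0 female-typed in the controls. In Angpt1ΔNC 22 cells were male-typed and 21 female-typed. Sex and genotype therefore cannot be told apart in the comparison of all cells of cluster 13, and the same comparison was also made in male-typed cells alone.

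Cluster 13 was a smaller share of the Angpt1ΔNC library than of either control. It held 165 of 9076 kept cells of control 1 (1.82%, exact 95% interval 1.55 to 2.11%), 165 of 10160 of control 2 (1.62%, 1.39 to 1.89%) and 64 of 6772 of Angpt1ΔNC (0.945%, 0.729 to 1.21%). The interval of Angpt1ΔNC lay below those of both controls, but such intervals cover counting error only, and with 1 Angpt1ΔNC library the spread between pools of that genotype is unknown. As a share of TM1 to TM11 and clusters 13, 17 and 18 together, cluster 13 made up 4.42% and 3.6% in the controls and 1.86% in Angpt1ΔNC. The labels TM1 to TM11 are those that the deposited clustering gives to the trabecular meshwork and its neighbours, among them corneal endothelium (TM2) in the paper. Other labels shifted in both directions. Cluster 19 went from 4.26% and 4.91% of kept cells to 0.797%, and TM7 from 7.35% and 7.27% to 2.57%. Cluster 18 went from 3.32% and 1.62% to 7.89%, and TM9 from 2.25% and 2.93% to 4.83%. The paper could not exclude variability in dissection for shifts between its corneal and uveal labels, and the source was not tested here.

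Each of the 4 markers was higher in cluster 13 than in any other label, in all 3 libraries. Levels are given as the mean over cells of the gene's UMIs per 10000 UMIs of the cell. Thbs4 (chromosome 13, 92751590 to 92794818, minus strand, build GRCm38) stood at 22.3 in control 1, 22.1 in control 2 and 20.2 in Angpt1ΔNC, and the next label, TM1, stood at 5.38, 5.51 and 5.42. Spink8 (chromosome 9, 109812280 to 109826633, plus strand) stood at 5.61, 9.01 and 3.30, against 0.00124, 0.00167 and 0.000359 in all other kept cells. Sfrp2 stood at 39.4, 28.8 and 26.4, followed by TM4 at 10.0, 10.5 and 13.2. Comp stood at 7.82, 8.09 and 8.26, followed in Angpt1ΔNC closely by TM4 at 7.88, where the controls of TM4 had 2.39 and 3.36. The most selective of the 4 was thus Spink8, which was near 0 elsewhere, and the least selective was Comp in the Angpt1ΔNC library.

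**Figure D1:**
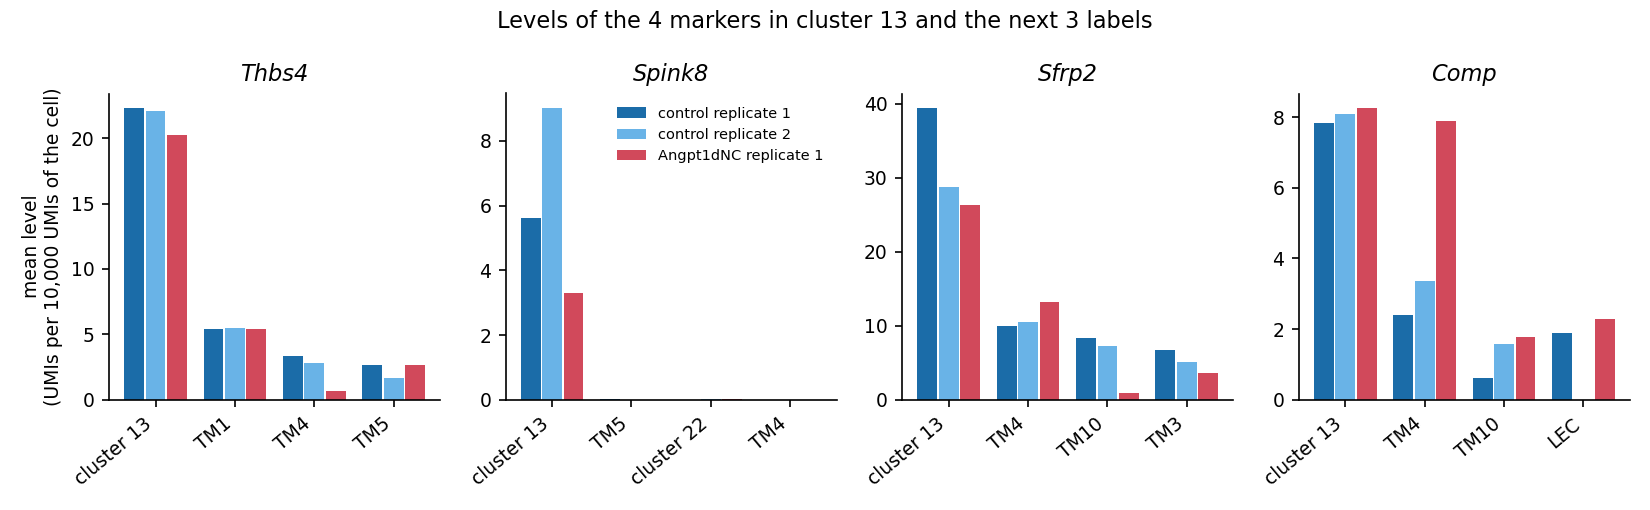
Mean level of Thbs4, Spink8, Sfrp2 and Comp (UMIs per 10,000 UMIs of the cell, vertical axis) in cluster 13 and in the 3 labels next in order, with 1 bar for each library. Cluster 13 has the highest bars for every marker, and Spink8 is close to 0 in the other labels, while Comp in TM4 of Angpt1ΔNC (7.88) nears the 8.26 of cluster 13.

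Most cells of cluster 13 held several of these markers. At least 1 UMI of Thbs4 was present in 92.7%, 92.7% and 76.6% of the cells of control 1, control 2 and Angpt1ΔNC, of Sfrp2 in 84.2%, 78.8% and 76.6%, of Comp in 64.8%, 64.8% and 68.8%, and of Spink8 in 53.3%, 67.9% and 26.6%. In cluster 4, an epithelial label with a greater median depth of 12359 to 14480.5 UMIs per cell, the shares were 0.312 to 0.789% for Thbs4 and 1.56 to 3.16% for Sfrp2. Not every label outside the stroma was this low. In cluster 1, the retinal pigment epithelium of the paper, Thbs4 was found in 64.2% of cells in control 2 and 76.5% in Angpt1ΔNC. How much of such counts is free RNA was not tested. With each cell thinned to 2000 UMIs, which left out 7, 3 and 5 cells, Spink8 was found in 39.2%, 51.2% and 25.4% of cells and Thbs4 in 86.7%, 88.9% and 72.9%. The lower share of Spink8 and Thbs4 cells in Angpt1ΔNC was thus present at equal depth too, whereas the shares of Comp at that depth were 53.2%, 54.9% and 54.2%.

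All 4 markers were present together in 62 cells of control 1 (37.6%), 70 of control 2 (42.4%) and 16 of Angpt1ΔNC (25.0%). A further 57, 50 and 17 cells held 3 of them, and 4, 2 and 3 cells held none. Spink8 was nested within Thbs4: of the cells with a Spink8 UMI, 86 of 88, 111 of 112 and 17 of 17 also had a Thbs4 UMI. Across cells, the level of Spink8 followed that of Thbs4 with a Pearson r of 0.22, 0.28 and 0.48 (log scale, 165, 165 and 64 cells of 1 library each), as a description that depth per cell also enters.

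**Figure D2:**
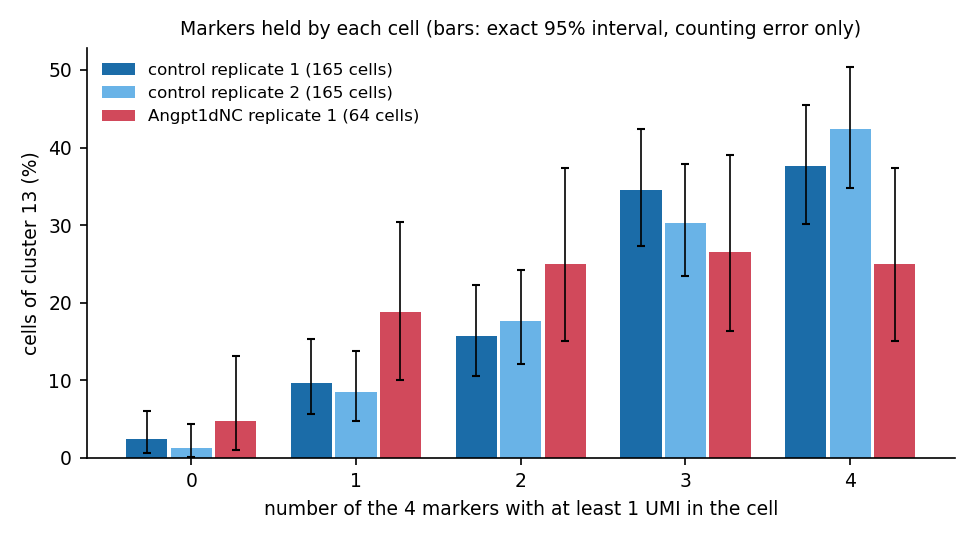
Share of the cells of cluster 13 (%, vertical axis) by the number of the 4 markers with at least 1 UMI, with 1 bar for each library and exact 95% intervals for counting error as error bars. All 4 markers were found in 37.6% and 42.4% of the control cells and in 25.0% of the Angpt1ΔNC cells.

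The 25 genes with the highest fold over all other kept cells, taking the lowest fold of the 3 libraries, form a dense connective tissue profile. Besides the 4 markers they hold the SLRPs keratocan (Kera), epiphycan (Epyc), fibromodulin (Fmod), chondroadherin (Chad) and Prelp, the fibrillar collagen chains Col1a1, Col11a1 and Col11a2, and Cilp2, a cartilage intermediate layer protein. They also hold the tendon regulators scleraxis (Scx), a transcription factor of tendon progenitors, and tenomodulin (Tnmd), a membrane protein of mature tendon, and the lubricating proteoglycan lubricin (Prg4). The secreted proteins Angptl1, an angiopoietin-like factor that does not bind TEK, Igfbp6, an insulin-like growth factor binding protein, Pdgfc, a platelet-derived growth factor, Egfl6, Abi3bp, Ptx4 and Ssc5d and the growth arrest genes Gas1 and Gas2 complete the set.

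Within this set Fmod stood at 61.7 in control 1, 64.6 in control 2 and 40.7 in Angpt1ΔNC, 25.9, 21.9 and 8.47 times the level of the other cells after 0.1 was added to both. Kera stood at 26, 20.7 and 10.1, and Scx at 2.18, 2.25 and 1.93. Col11a2, a chain of the fibril-nucleating collagen XI, stood at 2.66, 2.30 and 1.26 and was at most 0.121 in TM1, TM4, TM5 and TM10. A high fold over the average cell did not mean that cluster 13 held the highest level of each gene. Kera was higher in TM1 (65.7, 59.6 and 15.8), Chad was higher in TM4 (11.4, 12.2 and 6.70), Prg4 was higher in TM10 of both controls (8.83 and 9.38, against 5.92 and 6.59 in cluster 13), and Tnmd in TM4 (18.1, 20.8 and 14.6) lay near its level in cluster 13 (20.3, 15.8 and 13.1).

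**Figure D3:**
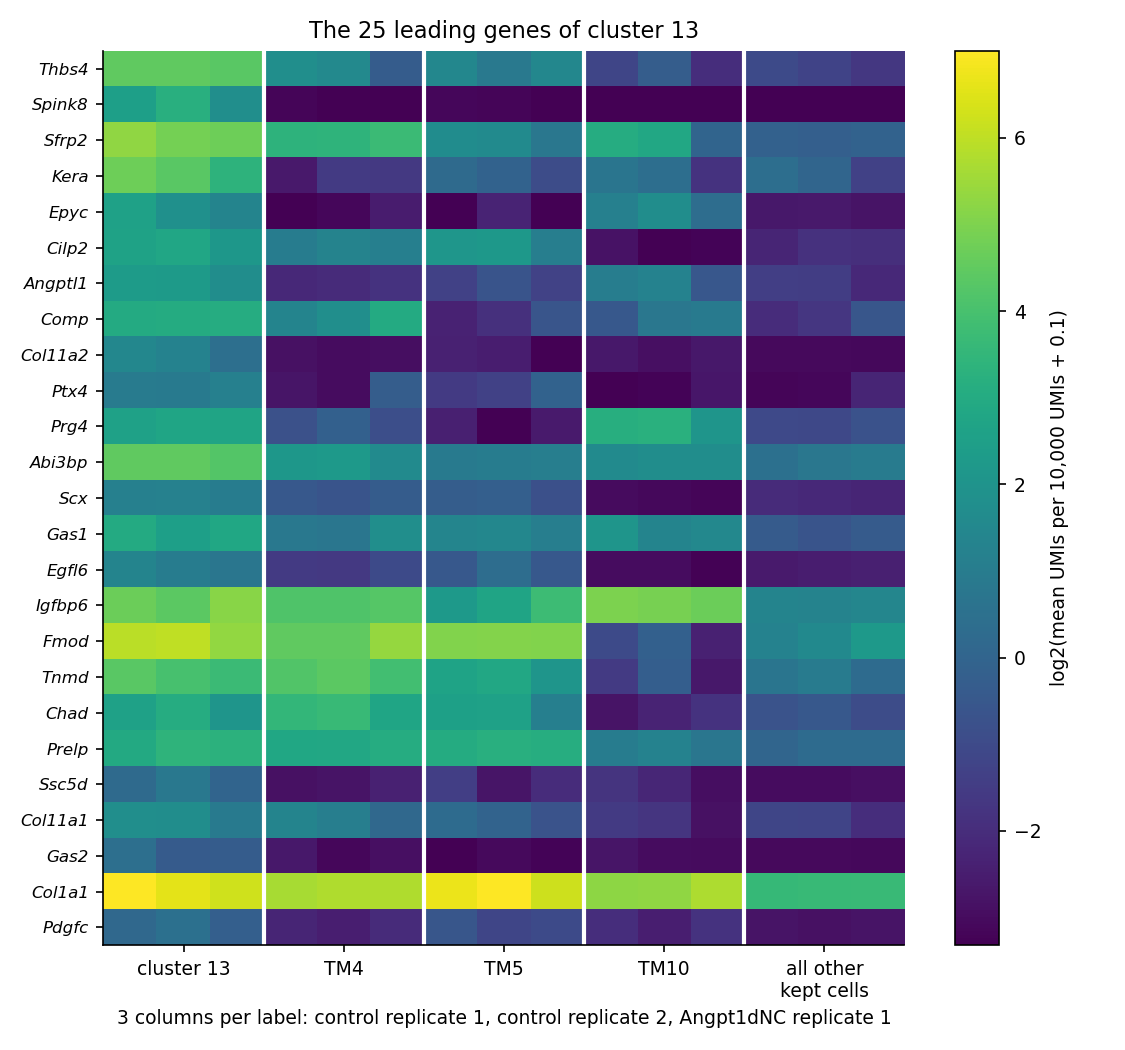
Levels of the 25 leading genes of cluster 13 as log2(mean UMIs per 10,000 UMIs + 0.1), by colour, with 1 column for each library of cluster 13, TM4, TM5, TM10 and all other kept cells. Spink8, Col11a2 and Thbs4 are brightest in cluster 13, while Fmod, Tnmd and Chad are also bright in TM4 and TM5 and Prg4 in TM10.

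Promoter sequence was looked at for the leading genes, since Scx belongs to the basic helix-loop-helix factors, which bind E-boxes. Of the 25 genes, 17 matched the RefSeq promoter table (build GRCm38.p6), with 19 promoters in all. An E-box (CANNTG, a pattern that is its own reverse complement, so that both strands are searched together) lay within 250 bases before the start in 10 of these 19 promoters, against 66.2% of all 32851 promoters of the same length, so the motif was not more frequent among these genes. The letters TATAAA, searched on both strands, lay in 3 of the 19 and in 12.4% of all. The following lines show the 100 bases before the start for the markers Thbs4 and Sfrp2, which define the cluster and have no E-box in this stretch, and for Angptl1, Chad and Egfl6, which have 1 or 2 and were chosen after the search. Each runs 5′ to 3′ on the strand of the gene, and capitals mark E-boxes and, 28 bases before the start of Chad, TATAAA. The coordinates are chr13:92794819-92794918 (minus strand) for Thbs4, chr3:83766221-83766320 (plus) for Sfrp2, chr1:156838923-156839022 (plus) for Angptl1, chr11:94564947-94565046 (plus) for Chad and chrX:166585717-166585816 (minus) for Egfl6.
Thbs4: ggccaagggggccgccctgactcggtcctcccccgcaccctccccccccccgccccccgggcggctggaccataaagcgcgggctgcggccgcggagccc
Sfrp2: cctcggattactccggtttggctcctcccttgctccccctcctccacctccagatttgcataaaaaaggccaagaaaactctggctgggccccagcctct
Angptl1: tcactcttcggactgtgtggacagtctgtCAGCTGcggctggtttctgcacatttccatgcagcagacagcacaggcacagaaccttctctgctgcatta
Chad: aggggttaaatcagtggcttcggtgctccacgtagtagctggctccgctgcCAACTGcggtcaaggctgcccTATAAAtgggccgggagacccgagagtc
Egfl6: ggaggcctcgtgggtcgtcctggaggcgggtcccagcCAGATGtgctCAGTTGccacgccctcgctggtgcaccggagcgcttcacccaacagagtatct

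Of the marker lists for other cell classes, the tendon and ligament list stood furthest above the rest of the tissue in cluster 13. The 8 tendon and ligament genes (Scx, Mkx, Tnmd, Fmod, Thbs4, Comp, Cilp and Cilp2, of which Thbs4 and Comp are also markers of the cluster) were all detected in each library. Their summed level was 122 in control 1, 121 in control 2 and 90.2 in Angpt1ΔNC, against 4.69, 5.70 and 7.01 in all other kept cells. TM4 shared part of this profile, with Tnmd at 18.1, 20.8 and 14.6 and Fmod at 22.5, 22.2 and 41.0. Thbs4 (3.35, 2.81 and 0.704) and Scx (0.621, 0.542 and 0.711) were lower in TM4 than in cluster 13. Mkx, a homeobox regulator of tendon, stood at 0.822, 0.817 and 0.813 in cluster 13, against 0.28, 0.345 and 0.262 in TM4. Cartilage and bone genes, by contrast, summed to 0.992, 1.29 and 0.834, near the 1.10, 1.18 and 1.11 of the other cells. Of that list Ibsp and Bglap, which mark mineralising bone, were at 0 in all 3 libraries and Col2a1, the major collagen of cartilage, stood at 0.439, 0.27 and 0.418, above 0.00424, 0.00242 and 0.00335 in the other cells.

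The study's own grouping puts cluster 13 in the corneal stroma, and the keratocyte list gave a mixed picture of it. Kera was high, as given above. Lum (lumican) stood at 4.93, 4.71 and 13.2, against 71.4, 72.9 and 49.6 in TM1. Aldh3a1, a corneal crystallin of keratocytes, stood at 1.06, 0.368 and 0.435, against 23.9, 27.1 and 14.2 in TM1, and Tkt, another such crystallin, at 1.05, 0.821 and 0.712, against 11.3, 9.60 and 7.23. Of the 6 keratocyte genes only Kera was thus above the level of all other kept cells in all 3 libraries, and the cluster is called here by its number.

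Other stromal classes were present at intermediate levels. The Cd34 fibroblast genes summed to 10.0, 10.8 and 8.58, against 3.65, 3.31 and 3.50 in the other cells, with Cd34 at 1.71, 2.25 and 1.88 in cluster 13 and at 9.05, 7.96 and 8.42 in TM10. The trabecular genes summed to 12.6, 16.6 and 16.3, but Myoc (myocilin) stood at only 3.06, 2.19 and 3.17, against 62.8, 59.4 and 23.2 in TM4. Markers outside the stroma were low. The epithelial list summed to 0.600, 0.519 and 0.716, against 33.6, 27.6 and 38.4 in the other cells, with Krt13 and Krt4 at 0 in each library. Cd3e, Cd3d and Nkg7 of the lymphoid list and Gfap and Cdh19 of the glial list were also at 0.

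A minority of the cells carried at least 2 UMIs of a list from outside the stroma, namely 37 in control 1 (22.4%), 35 in control 2 (21.2%) and 9 in Angpt1ΔNC (14.1%). The most frequent were melanocyte genes, in 16, 20 and 2 cells, and epithelial genes, in 10, 9 and 5. The red cell genes Hba-a1 and Hbb-bs summed to 42.7 in control 1, where 3 cells held at least 2 UMIs of them, and to 0.208 and 0.240 in the other libraries. The part of such RNA in the differences between genotypes was measured by leaving these cells out.

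**Figure D4:**
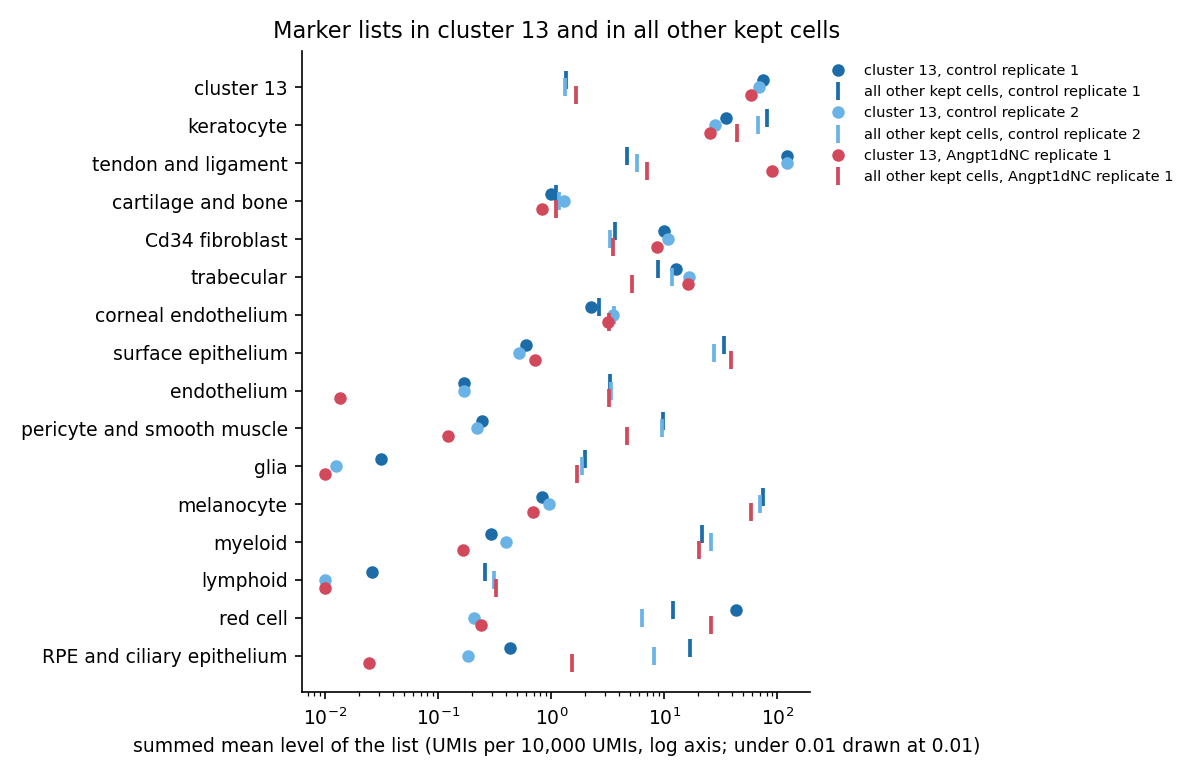
Summed mean level of each marker list (UMIs per 10,000 UMIs, log axis, values under 0.01 drawn at 0.01), with a dot for cluster 13 and a tick for all other kept cells of the same library. The tendon and ligament list stands at 90.2 to 122 in cluster 13 against 4.69 to 7.01 in all other kept cells, while epithelial and melanocyte lists lie far to the left of their ticks.

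The matrix genes of cluster 13 stood well above those of the average cell. SLRPs summed to 459, 413 and 488, against 81.5, 91.6 and 123 in the other cells, of which Dcn (decorin) made up 317, 272 and 378. Fibril-forming collagens summed to 242, 183 and 151, against 26.3, 28.3 and 31.3, with Col1a1 at 126, 95 and 77.3. TM1 exceeded cluster 13 in Col1a1, with 279, 300 and 217. Thrombospondins and other matricellular proteins, which act between cells and matrix rather than as scaffold, summed to 228, 214 and 198, against 64.2, 70.5 and 72.4. That list held Sparc, a collagen-binding glycoprotein, at 136, 116 and 107, and Ctgf, a matricellular target of TGF-beta and YAP signalling, at 28.6, 32.4 and 26.8. In TM1, where Sparc reached 199, 194 and 194, Ctgf was at 0.882, 1.12 and 1.44.

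Collagen processing enzymes and chaperones summed to 66.7, 61.5 and 50.4, against 21.8, 22.5 and 20.2 in the other cells, with the procollagen C-proteinase enhancer Pcolce at 16.7, 13.8 and 10.7 and the crosslinking enzyme Lox at 7.86, 7.76 and 7.80. Secreted Wnt antagonists summed to 44.7, 32.7 and 29.98, against 4.62, 3.90 and 3.52, most of it Sfrp2. Keratan sulfate synthesis, which makes the glycan chains that SLRPs of the cornea carry, was lower than elsewhere, at 1.47, 1.15 and 1.30 against 2.23, 2.37 and 2.27. Chemokines (15.6, 14.7 and 8.09 against 81.3, 81.8 and 94.3) and interferon response genes (35.4, 26.7 and 32.8 against 101, 85.6 and 93.2) were lower than in the average cell.

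Summed levels of genes known to respond to tissue dissociation were above those of the other kept cells in all 3 libraries. The 17 heat shock genes summed to 259, 255 and 214, against 165, 159 and 176, and the 20 immediate early genes to 165, 139 and 173, against 117, 105 and 89.9. The members were not alike, and Hspb1, a small heat shock protein, was below the other cells in both controls (3.15, 1.99 and 9.55 against 9.57, 9.94 and 8.25). Hmox1 (heme oxygenase 1) stood at 48.5, 59.4 and 22.4, against 8.72, 9.66 and 6.15 in the other cells. Hspa8, a constitutive heat shock chaperone, stood at 47.8, 44.8 and 35.4, against 19.8, 18 and 13.8, and the immediate early gene Fos at 30.3, 19.3 and 27.1, against 9.58, 6.79 and 4.31. The tissue was digested with collagenase and trypsin before capture, and whether these levels arose then was not tested.

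By its whole profile cluster 13 was closest to TM4. Over 7798 genes, the Pearson r of log2 mean levels in the controls was 0.92 with TM4, 0.91 with TM5, 0.91 with TM10 and 0.89 with TM1, as a description across genes of shared libraries. In Angpt1ΔNC TM1 (0.90) lay nearer than TM10 (0.89). Against TM4, cluster 13 was higher in Spink8, Kera, Epyc, Gpha2, Angptl1, Col11a2, Prg4, Cysltr1, Thbs4 and Gas2. Kera, for example, stood at 0.0628, 0.241 and 0.233 in TM4. It was lower in Penk, Bpifb1, Csf3, Ctsc, Gdnf, Tagln, Cdo1, Tnfrsf11b, Cyp26b1 and Ltbp2, with the opioid precursor Penk at 1.13, 0.855 and 2.00, against 29.8, 31.9 and 40.8 in TM4, and Ltbp2, a microfibril protein, at 0.253, 0.188 and 0.379, against 5.30, 5.48 and 3.67.

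Against TM5, the genes furthest below included Spp1 (osteopontin), at 0.129, 0.335 and 2.33, against 30.05, 36.0 and 21.5, and the furthest above included Prg4, Col14a1 and Comp. Against TM10, the Cd34-rich label, Fmod showed the widest gap, since TM10 stood at 0.398, 0.799 and 0.0943. The genes furthest below TM10 were the interferon-inducible Ifi203, Ifi204, Ifi205, Ifi207, Ifi211 and Mndal, the hyaluronan synthase Has1 (0.294, 0.537 and 0.272 against 14.3, 22.6 and 7.77), Efemp1 and the chemokines Cxcl1 and Ccl11.

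Gpha2, the alpha subunit of the heterodimeric hormone thyrostimulin, was high in part of cluster 13, at 24.8, 38.0 and 8.54. It was higher still in the epithelial cluster 4, at 36.4, 57.6 and 28.9, where epithelial keratins and related markers summed to 203, 199 and 183. In cluster 13 it was found in 48 of 165, 81 of 165 and 21 of 64 cells, and across cells it rose with Spink8 (r of 0.33, 0.41 and 0.45), although epithelial markers were near 0 there.

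Within the cluster, the cells ranged from a Thbs4-, Fmod- and Kera-rich end to an end rich in Lum. Across cells, Thbs4 followed Fmod (r of 0.48, 0.37 and 0.55), Kera (0.38, 0.34 and 0.48), Tnmd (0.33, 0.44 and 0.62) and Cilp2 (0.41, 0.44 and 0.32), and ran against Lum (-0.41, -0.34 and -0.41). Sfrp2 followed Dcn (0.61, 0.66 and 0.37) and ran against Mgp (-0.29, -0.32 and -0.49), the matrix Gla protein that inhibits calcification. Comp followed Fmod (0.41, 0.32 and 0.41) and Pcolce2 (0.45, 0.29 and 0.53). Spink8 followed Camp, the cathelicidin antimicrobial peptide (0.42, 0.38 and 0.74). Camp lies on chromosome 9 at 109847379 to 109849617 on the minus strand, downstream of Spink8 and in the opposite orientation. These values describe cells of 1 library each, with no test.

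The cells of cluster 13 without a Thbs4 UMI numbered 12 of 165 (7.27%, exact 95% interval 3.81 to 12.4%) in each control and 15 of 64 (23.4%, 13.8 to 35.7%) in Angpt1ΔNC. Their median depth was 5492, 6787.5 and 4151 UMIs, against 6277, 6115 and 5701 in the cells with Thbs4, so in Angpt1ΔNC they were also shallower. In these cells Fmod stood at 11.2, 7.73 and 19.0, against 65.7, 69.1 and 47.3 in the cells with Thbs4, and Kera at 11, 5.59 and 1.79, against 27.2, 21.9 and 12.7. Lum stood at 22.8, 15.7 and 21.1, against 3.52, 3.85 and 10.7, and Mgp at 80.6, 47.2 and 49.5, against 19.9, 22.4 and 36.3.

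The clearest contrast was Igfbp2, an insulin-like growth factor binding protein, at 19.2, 12 and 61.1 in cells without Thbs4 and at 0.283, 0.308 and 7.43 in cells with it. TM1 and TM5, which both express Igfbp2 at high levels (226, 197 and 148 in TM1, and 94.1, 113 and 110 in TM5), are labels with little Spink8 and moderate Thbs4. At a greater depth per cell, 94.3%, 93.9% and 84.3% of TM1 cells held a Thbs4 UMI. Igfbp2 was also high in TM3 (63.1, 65.4 and 61.4) and TM2 (53.9, 73.0 and 70.3). Whether the cells without Thbs4 belong to any of these labels was not tested.

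Differences between genotypes within cluster 13 were tested on UMIs summed over its cells in each library, 2 controls against 1 Angpt1ΔNC library, with the quasi-likelihood test of edgeR and Benjamini-Hochberg adjustment over 7784 genes. At an adjusted p under 0.05, 172 genes were higher in Angpt1ΔNC (2.21% of those tested) and 132 lower (1.7%), and the median log2 change over all genes was -0.03. The design has 1 residual degree of freedom, the spread was shared by all genes, and the lone Angpt1ΔNC library was assumed to vary like the controls, so a gene on which the controls disagreed could be called. Sfrp4, at 3.1, 0.410 and 0.0489, was such a gene, and so were the red cell genes. Of the called genes 160 of 172 (2.06% of those tested) and 116 of 132 (1.49%) lay further from the nearer control than the controls lay from each other. DESeq2 called 27 of the same genes, 16 higher (0.206%) and 11 lower (0.141%), and for all 27 the Angpt1ΔNC library lay outside both controls by more than the distance between them. These 27 are described first. Without the cells that carried markers of another type, 20 of the 27 were called by edgeR, and Kera, Mgp, Clu, Crip1, Meg3, Hmox1 and Dnajb1 were not. In male-typed cells alone, with 22 cells in Angpt1ΔNC, edgeR called 0 genes at an adjusted p under 0.05 and 595 had an unadjusted p under 0.05.

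Among them Igfbp2 had the largest log2 change upwards outside sex-linked genes. Its level was 1.66 in control 1, 1.16 in control 2 and 20.0 in Angpt1ΔNC, a log2 change of 4.11 ± 0.22 (SE, edgeR, adjusted p = 4.0e-71; DESeq2, adjusted p = 2.0e-33). The controls lay together and Angpt1ΔNC far above them, but the UMIs came from a minority of cells, 19 of 165, 17 of 165 and 19 of 64. Among cells with a Thbs4 UMI the log2 change was 3.93 (edgeR, adjusted p = 2.9e-58), and in male-typed cells it was 4.26 (adjusted p = 0.53). Beside this rise, Igfbp2 in TM4 stood at 27.1, 34.8 and 90.3, in TM10 at 0.517, 0.931 and 9.87, and in all other kept cells at 9.97, 12.5 and 16.9. Igf1, the growth factor that such proteins bind, went the other way, from 4.80 and 4.05 to 1.8, with a log2 change of -1.37 ± 0.25 (edgeR, adjusted p = 4.5e-06; DESeq2, adjusted p = 0.049).

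Among the SLRPs, Kera was lower and Lum higher by both tools. Kera fell from 26 and 20.7 in the controls to 10.1 in Angpt1ΔNC, a log2 change of -1.21 ± 0.24 (edgeR, adjusted p = 3.2e-05). Lum, which lies beside Kera on chromosome 10 (Lum at 97565128 to 97572703 and Kera at 97606879 to 97613692, both on the plus strand), rose from 4.93 and 4.71 to 13.2, a log2 change of 1.47 ± 0.21 (edgeR, adjusted p = 3.0e-09). For both genes the controls lay close together and Angpt1ΔNC apart. Without the cells that carried markers of another type, Kera had a log2 change of -1.18 (edgeR, adjusted p = 0.075), past the threshold no longer, and Lum of 1.60 (adjusted p = 0.0023). In the cells with Thbs4 the log2 change was -0.97 for Kera (edgeR, adjusted p = 0.0035) and 1.54 for Lum (adjusted p = 6.5e-09). Of 13 SLRPs tested, 3 were higher (Lum, Aspn and Omd) and 2 lower (Kera and Epyc), with a median log2 change of 0.24 against -0.03 over all genes, of which 2.21% were called higher and 1.7% lower. Aspn (asporin) went from 1.19 and 1.04 to 2.42 (log2 change 1.33, and 2.07 with equal numbers of cells per library), and Epyc from 5.90 and 3.54 to 2.42, where the controls differed from each other more than the lower of them differed from Angpt1ΔNC.

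Among the other genes called by both tools, those higher in Angpt1ΔNC included several secreted or matrix proteins. Mfap5, a microfibril protein, went from 1.28 and 1.14 to 3.98 (log2 change 1.61). Wisp2, a matricellular CCN protein, went from 0.479 and 0.641 to 2.48 (2.31), and in cells with a Thbs4 UMI its log2 change was 1.37 (edgeR, adjusted p = 0.0014). Clu, an extracellular chaperone, went from 1.69 and 1.72 to 4.29 (1.35, and 0.92 without the cells with markers of another type, edgeR, adjusted p = 0.12). Mgp went from 24.3 and 24.2 to 39.4 (0.86), but 1 cell of Angpt1ΔNC held 30.2% of its UMIs there, 427 of 1412. Without the cells with markers of another type the log2 change of Mgp was 1.02 (edgeR, adjusted p = 0.074), and in male-typed cells it was 0.34 (adjusted p = 0.67). The transcription factor Klf2 went from 4.96 and 3.52 to 10.4, and Il11ra1, an interleukin-11 receptor subunit, from 2.09 and 1.95 to 6.52. Il11ra1 was also higher in Angpt1ΔNC outside the cluster, at 0.282, 0.296 and 2.24 in all other kept cells, as was the ribosomal protein gene Rpl29, at 1.02, 1.11 and 3.91 in cluster 13 and 1.05, 1.16 and 4.44 elsewhere. Cyp2f2, Emb, Crip1, Meg3, Rps18 and AC160336.1 were the others, with Xist, which was found in 1, 0 and 23 cells and follows the sex of the pooled animals. In all other kept cells Rps18 stood at 7.67, 8.15 and 21.5, Cyp2f2 at 0.153, 0.239 and 0.824 and Meg3 at 1.76, 1.90 and 3.32. AC160336.1, Emb, Crip1, Wisp2 and Lum were also above both controls there. Clu and Mgp lay between the controls in those cells, and Klf2 and Mfap5 lay below both.

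The genes lower in Angpt1ΔNC by both tools began with Gm10260, a predicted ribosomal protein gene, which stood at 3.46 and 5.05 in the controls and 0 in Angpt1ΔNC. At a floor of 3 counts it was at least 49.2-fold lower, and it was also nearly absent from all other Angpt1ΔNC cells (3.87, 4.97 and 0.0188), so this difference was shared by the whole library. Gpha2 went from 24.8 and 38.0 to 8.54, a log2 change of -2.25 ± 0.25 (edgeR, adjusted p = 9.1e-17), while it stood at 2.59, 4.20 and 3.74 in the other cells. Tac1, the precursor of substance P, went from 10.5 and 5.88 to 1.68 (-2.42) and was held by 44, 47 and 9 cells. Pi16, a peptidase inhibitor of adventitial fibroblasts, went from 5.36 and 5.44 to 1.17 (-2.16). Hmox1 went from 48.5 and 59.4 to 22.4 (-1.26; without the cells with markers of another type -1.22, edgeR, adjusted p = 0.058), and the co-chaperone Dnajb1 from 9.10 and 8.40 to 3.70 (-1.13; without those cells -0.98, edgeR, adjusted p = 0.12). Gm42418, which lies in a ribosomal RNA repeat and is known to collect reads of ribosomal RNA, went from 62.6 and 55.1 to 18.2 in cluster 13 and from 30.2 and 25.8 to 10.9 elsewhere. Gm13305 and Pdia3 were the others. In all other kept cells Gm13305 stood at 2.34, 2.55 and 0.649, Pdia3 at 4.18, 4.20 and 2.23 and Dnajb1 at 3.07, 2.64 and 1.71. Hmox1, Tac1 and Kera were also below both controls there, while Igf1 and Pi16 were above both and Gpha2 lay between them.

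**Figure D5:**
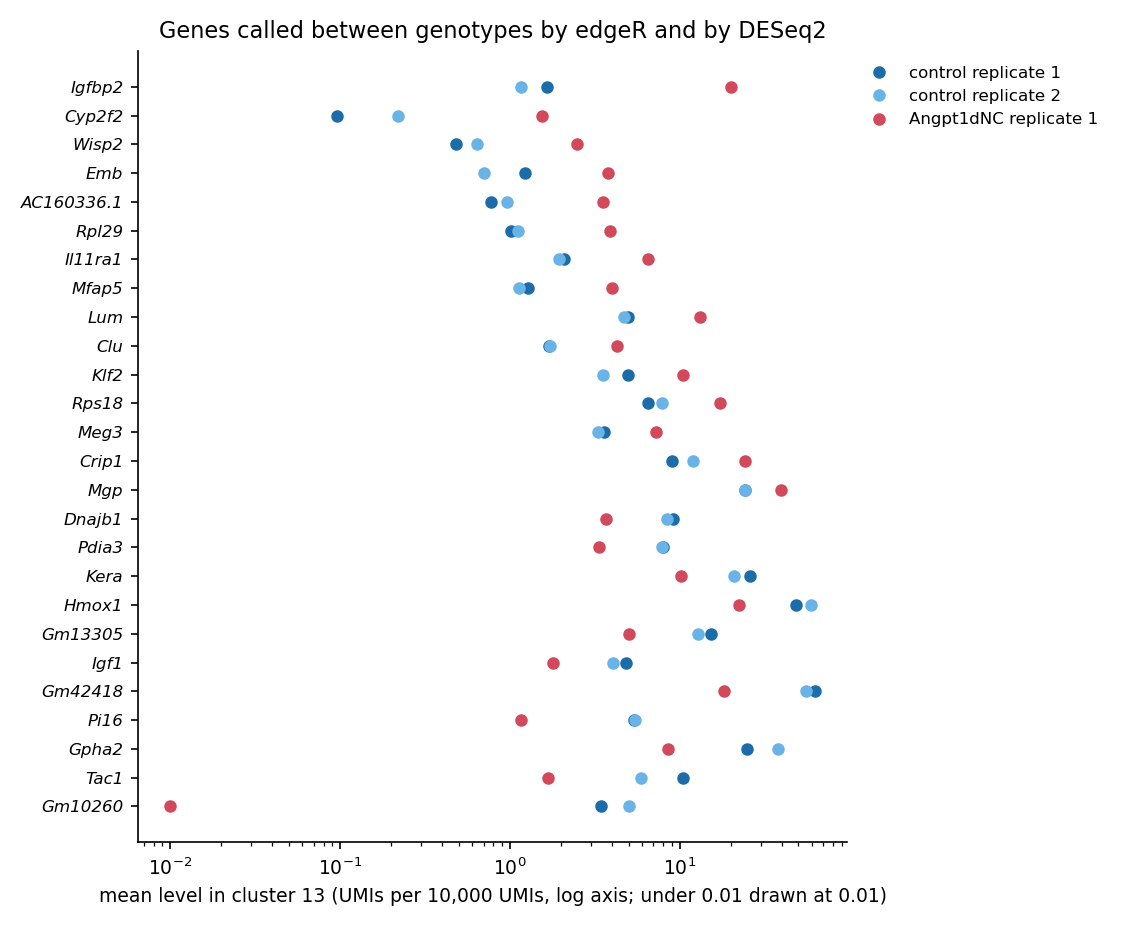
Mean level in cluster 13 (UMIs per 10,000 UMIs, log axis, values under 0.01 drawn at 0.01) of the 26 genes, Xist left out, called between genotypes by edgeR and by DESeq2, with 1 dot for each library. The dots of the controls lie closer to each other than to that of Angpt1ΔNC, which lies to the right for 15 genes, Igfbp2 (20.0) among them, and to the left for 11, such as Gpha2 (8.54) and Kera (10.1).

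Most of the genes that set cluster 13 apart had a log2 change below 0 in Angpt1ΔNC. These genes were picked by their levels in the same libraries, so their values beside those of all genes are a description and no test of the set. Of the 25 leading genes, all 25 were tested, 0 were higher and 3 lower (Kera, Epyc and Spink8), against 2.21% and 1.7% of all genes, and their median log2 change was -0.39 against -0.03 over all genes, with 18 of 25 below 0. Thbs4 had a log2 change of 0.11 ± 0.22 (edgeR, adjusted p = 0.89) on summed UMIs, while its mean over cells was lower in Angpt1ΔNC, so its direction depended on how cells were weighted. Comp was at 0.15 (adjusted p = 0.85), Sfrp2 at -0.41 (adjusted p = 0.39) and Fmod at -0.54 (adjusted p = 0.18) in the same edgeR test. Spink8 fell by 1.01 ± 0.24 on the log2 scale (edgeR, adjusted p = 0.0016), but its controls differed from each other more than the nearer of them from Angpt1ΔNC. In cells with a Thbs4 UMI its log2 change was -0.77 (edgeR, adjusted p = 0.060), and with equal numbers of cells per library it was -0.65 (adjusted p = 0.21).

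The collagen genes showed no call in either direction. With 2.21% of all genes called higher and 1.7% lower, lists this short can hold none without any difference from other genes. Of 10 fibril-forming collagens, 5 fibril-associated collagens, 11 other collagens and 25 collagen processing genes tested, 0 were called in each list by edgeR at an adjusted p under 0.05, with median log2 changes of -0.19, 0.03, 0.06 and -0.0015 against -0.03 over all genes. The 12 integrins and collagen receptors tested, through which cells hold the matrix, also had 0 calls, with a median of 0.41. Of 8 tendon and ligament genes 1 was higher (Cilp, from 0.407 and 0.612 to 0.937) and 0 lower. Over all the gene lists 61 members were called by edgeR, which called 3.91% of all genes tested, and DESeq2 called 11 of the 61. The lists were chosen with earlier results of these data known, so this count is no result about them. Without the cells with markers of another type 58 of the 61 could be tested and 16 were called, namely Lum, Aspn, Mfap5, Wisp2, Spp1, Pi16, Igf1, Igfbp2, Tgfb1, Klf2, Hspb1, Ccl2, Cxcl1, Cxcl14, Ifi27l2a and Ifit1.

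Matricellular genes had 5 of 21 higher (Spp1, Wisp2, Cilp, Thbs1 and Matn4) and 1 lower (Cyr61), with a median log2 change of -0.02, where 2.21% of all genes were higher and 1.7% lower. Of these 6 genes DESeq2 called Wisp2 alone. Spp1 rested on few cells: it was found in 3 cells of Angpt1ΔNC, and 1 of them held 96.8% of its UMIs. Thbs1, thrombospondin-1, went from 6.19 and 9.63 to 11.3, a gap smaller than that between the controls. Elastic fibre genes had 2 higher (Mfap5 and Efemp1, the latter in 6 cells of Angpt1ΔNC) and 2 lower (Fbln2 and Emilin1) of 16, where Fbln2 went from 2.73 and 3.84 to 1.72 and Emilin1 from 2.12 and 1.79 to 1.01.

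In the TGF-beta and BMP list, 4 of 24 genes were higher and 2 lower, against 2.21% and 1.7% of all genes, with a median log2 change of 0.19 against -0.03. Tgfb1, the ligand TGF-beta 1, went from 0.664 and 0.725 to 1.72, Id2, a target of BMP signalling, from 1.64 and 1.38 to 2.81, and Id1 from 1.36 and 1.72 to 2.32. The activin chain Inhba went from 0.697 and 0.825 to 0.225. Gdf10, higher in Angpt1ΔNC, was found in 3, 2 and 7 cells. None of the genes named here from this list was called by DESeq2.

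In the immune and stress lists each count was small, and the share of all genes called was 2.21% higher and 1.7% lower. Of 9 chemokines tested, 0 were higher and 3 lower (Ccl2, Cxcl14 and Cxcl1), with a median log2 change of -0.40. Cxcl14, a chemokine of epithelia and stroma, went from 6.12 and 6.36 to 2.5 and Ccl2, the monocyte chemoattractant, from 1.54 and 2.56 to 0.532 (log2 change -1.76, and with equal numbers of cells per library -0.54, edgeR, adjusted p = 0.59). Ccl2 outside cluster 13 stood at 20.5, 19.7 and 36.6. Of 14 interferon response genes 4 were higher (Ifi27l2a, B2m, Ifit1 and Ifit2) and 1 lower (Irf1), and B2m, the light chain of MHC class I, went from 2.79 and 2.06 to 4.66. Of 11 complement genes 3 were higher (Clu, C1ra and C1s1) and 1 lower (C1qtnf3). Of 17 heat shock genes 1 was higher (Hspb1, from 3.15 and 1.99 to 9.55) and 2 lower (Hmox1 and Dnajb1), and of 20 immediate early genes 1 was higher (Klf2) and 1 lower (Ier3), counts too small to be read as a change of either list.

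Whether the genotype difference of cluster 13 departed from that of TM4, TM5 and TM10, the 3 labels nearest in the controls, was tested by adding these labels to the edgeR fit, with 5 residual degrees of freedom and 9899 genes. At an adjusted p under 0.05 the test called 0 genes (0%), and 695 (7.02%) had an unadjusted p under 0.05. Against TM1 alone the same test called 26 of 8893 genes (17 higher and 9 lower, with 1 residual degree of freedom), and against all of TM1 to TM11 it called 7 of 11484. No difference between genotypes was thus called particular to cluster 13 against TM4, TM5 and TM10, and the outcome depended on the labels it was set against. For Igfbp2 the log2 change was 1.51 in TM4, 0.12 in TM5 and 3.41 in TM10, and the difference of cluster 13 from their mean was 2.31 (edgeR, adjusted p = 0.64). For Lum that difference was 1.20 (adjusted p = 0.58), for Hmox1 -0.97 (adjusted p = 0.22) and for Kera 0.13 (adjusted p = 1), again by edgeR. Outside these labels, Kera in TM1 stood at 65.7 and 59.6 in the controls and 15.8 in Angpt1ΔNC.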

How the data were processed

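The libraries were 10x Chromium single-cell RNA libraries. The authors aligned reads to mm10 with Cell Ranger (2.1.1 per the labels, 3.0.2 per the headers of the matrices), and the deposited matrices hold raw UMI counts of 31053 genes per called cell. They kept cells with at least 200 genes, at least 1000 UMIs and at most 10% mitochondrial UMIs, removed doublets, and clustered the cells with Seurat 3.1.3 after integration. Xist, Y-linked genes and Angpt1 were kept out of that clustering. Their table of labels per cell was used as it stands, and the integrated expression values deposited beside it were not used.

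From these counts, levels, shares (exact Clopper-Pearson intervals, counting error only) and sums per library were computed with Python 3.11.15, numpy 2.4.6, scipy 1.17.1 and pandas 2.3.3, and drawn with matplotlib 3.10.9. Summed counts were tested with edgeR 4.0.16 in R 4.3.3 (minimum count 10, TMM factors, quasi-likelihood F-test), and with DESeq2 1.42.0 as an alternative. No source says whether the control libraries came from separate litters or days, so p-values measure only the spread between these pools. On simulated counts with 200 changed genes, the genotype test recovered 68% of them over 7392 genes, with 4.23% of its calls false. The test of differences between labels recovered 57.5% over 9485 genes, with 3.36% false. Both rates hold only for the sizes of change that were put in, and recovery of smaller changes was not tested. Whether these rates hold for the measured libraries, where the controls disagreed on some called genes, was not tested.

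Alternatives were other size factors, no or a stricter filter, equal numbers of cells, male-typed cells, cells without markers of another type, other labels in the comparison and leaving out each control. Cells with a Thbs4 UMI, cells without red cell genes, cells of at least 3000 UMIs and a newer edgeR option were added after the data were seen.

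The named genes are the 4 markers and the genes of the marker lists, the 25 leading genes by lowest fold over other cells (found in at least 0.25 of the cells), the 10 highest and 10 lowest against each of the 3 nearest labels, and the 10 genes with the smallest adjusted p in each direction that passed a log2 change of 1 and lay outside both controls. They also are the called or highest members of each pathway list and the genes with the strongest correlation with a marker across cells. The 27 genes called by both tools were singled out after their values were seen. The members and the lists were chosen with earlier results of these data known. Gene positions are from GENCODE M21 (build GRCm38).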

Additional observations from a re-analysis of the deposited data

How the results depend on the processing

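Of the 304 genes that edgeR called between genotypes in cluster 13, DESeq2 called 27, no filter on low counts 2, male-typed cells 0, cells without markers of another type 55 in all and the newer edgeR option 474 in all. With no filter the median log2 change was -0.24, so that setting is also centred differently. The direction was the same for 304 of 304 genes in DESeq2 and 289 of 294 in male-typed cells. The difference of cluster 13 from other labels gave 0 calls against TM4, TM5 and TM10, 26 against TM1 alone and 7 against all of TM1 to TM11, and 0 without either control.

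The ratio of Angpt1ΔNC to the mean of the controls in the share of cells was 0.549, and 0.520 to 0.582 leaving out each control. With TM1 to TM11 and clusters 13, 17 and 18 as denominator it was 0.464. For Thbs4 the ratio of levels was 0.913, with 1.04 on summed UMIs, 0.561 in male-typed cells and 0.877 without cells with markers of another type (0.908 to 0.917 leaving out each control). For Comp it was 1.04, with 1.07, 1.19 and 1.08 in these settings (1.02 to 1.06). Spink8 had 0.451 (0.366 to 0.588) and Sfrp2 0.773 (0.669 to 0.917), and their other settings moved them by less than the spread between controls. Leaving out each control in turn kept the direction of 44 of 44 values over 22 named genes. For all of these genes the Angpt1ΔNC library lay outside both controls, so this outcome was fixed in advance. The depth of 64 Angpt1ΔNC cells limits genes found in few cells.

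No paired analysis was possible because the Angpt1ΔNC group has 1 library, which shares at most 1 replicate number with the controls. The cause of these changes was not tested.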

Other observations

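Some cells called by Cell Ranger passed the stated filters on genes, UMIs and mitochondrial share but were not kept by the authors. They numbered 932 in control 1, 1189 in control 2 and 482 in Angpt1ΔNC. The authors removed predicted doublets after these filters, which is the step at which these cells were left out. Of these, 25, 46 and 7 held UMIs of at least 3 of Thbs4, Spink8, Sfrp2 and Comp, and 5, 17 and 3 held all 4. They are counted in no share or level of cluster 13.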
